A study of Mus musculus with 12 samples.

Results

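The genes that encode translation initiation factors were followed in mouse eggs matured after a control siRNA or siRNA against the decapping factors Dcp1a and Dcp2. Members were the genes whose single platform symbol starts with Eif and a digit, without Eif4enif1 and without the Eif2c and Eif2ak genes. They numbered 42 of 18193 genes with a single symbol on the array and were read by 119 of 45037 probe sets. Where a gene had several probe sets, the one with the highest mean log2 intensity over the 12 arrays stood for it. Full-grown oocytes of CF1 mice, whose age the labels do not give, were injected with 1 of 4 siRNA preparations. These were a control siRNA, a pool of siRNAs against Dcp1a (a cofactor of decapping), a pool against Dcp2 (the enzyme that removes the cap), or a mixture of the latter pools. Every group was then held for 20 h in milrinone, a phosphodiesterase inhibitor that keeps oocytes arrested in prophase, and matured in vitro for 18 h to metaphase II. RNA of 30 eggs made 1 array, and each siRNA had 3 independent biological replicates on Affymetrix arrays. Each array reads a pool, so fewer eggs with a transcript and less of it per egg cannot be told apart, and values are relative to the other transcripts of the array.

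Initiation factors assemble a ribosome at the start codon. The cap of an mRNA is bound by eIF4E, which joins the scaffold eIF4G and the helicase eIF4A, while eIF3 holds the mRNA complex on the small ribosomal subunit. The initiator tRNA arrives with eIF2 bound to GTP, and eIF2B reloads eIF2 with GTP for the next round. Full-grown oocytes make almost no new mRNA, so these factors meet only stored maternal transcripts during maturation, and the same cap that recruits eIF4E is the substrate of Dcp2.

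The siRNA targets were checked first. Dcp1a intensity was 12427, 5385 and 8083 in control eggs and 7449, 10248 and 6397 after Dcp2 siRNA alone. It read 1208, 589.3 and 1236 after Dcp1a siRNA and 517.7, 1233 and 622.3 after both, with no overlap with control. Dcp2 read 32.2, 30.4 and 81.8 in control eggs and 4.9 or 5.0, the bottom of the scale, on all 6 arrays that received its siRNA. All 11 egg markers on the array, among them Gdf9, Mos and Zp3, exceeded 589 units on every array. Their summed intensity ran from 101539 to 141448 in control eggs and from 157014 to 172380 in the double knockdown. Their median log2 change there against control was 0.93, with 2 of 11 called higher and 0 lower (limma), and the part of this shift in the results below was not tested. Of 14 cumulus and granulosa cell markers 12 never rose above 32 units, and Amh, Fshr and Inha lay at 4.9 on every array. Their sum, nearly all of it Nr5a2, was 1612 to 2217 in control eggs and 1300 to 1563 in the double knockdown. Among 10 markers of stromal, vascular or blood cells only Kdr passed 32 units (38.3 to 62.1). A pair of arrays stood apart, each closer to every Dcp1a siRNA array than to any array of its own group. Across tested probe sets control replicate 1 correlated at 0.978 to 0.988 with the Dcp1a siRNA arrays and at 0.938 to 0.954 with its own group. For Dcp2 siRNA replicate 2 the ranges were 0.978 to 0.985 and 0.938 to 0.963. Control replicates 2 and 3 were also no closer to their own group, at 0.954 to 0.967 and 0.938 to 0.967. With the Dcp1a siRNA arrays they correlated at 0.958 to 0.972 and 0.958 to 0.970.

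After siRNA against both decapping factors a small number of initiation factor genes were higher, and no member was called lower by its brightest probe set. Eif4h, which stimulates the eIF4A helicase, rose 18-fold, and Eif3l, an eIF3 subunit, rose at least 2.7-fold. The repressive cap-binding protein gene Eif4e2 rose 3.66-fold, and the eIF2B subunit gene Eif2b4 rose 3.62-fold. The eIF3 subunit genes Eif3d and Eif3k rose 2.2-fold and 1.71-fold. These were 6 of 35 members tested, with 0 lower, against 6.78% of all 6996 tested genes called higher and 1.64% called lower, 8.42% in all (limma, Benjamini-Hochberg adjusted p under 0.05). Of the 6, Eif3l was tested only because it was high in the double knockdown, so its place in this count supports nothing. Either siRNA alone moved no member past the threshold. Few genes of any kind passed, 0.0572% after Dcp1a siRNA and 0.0286% after Dcp2 siRNA (limma), so this says little about the members.

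**Figure D1:**
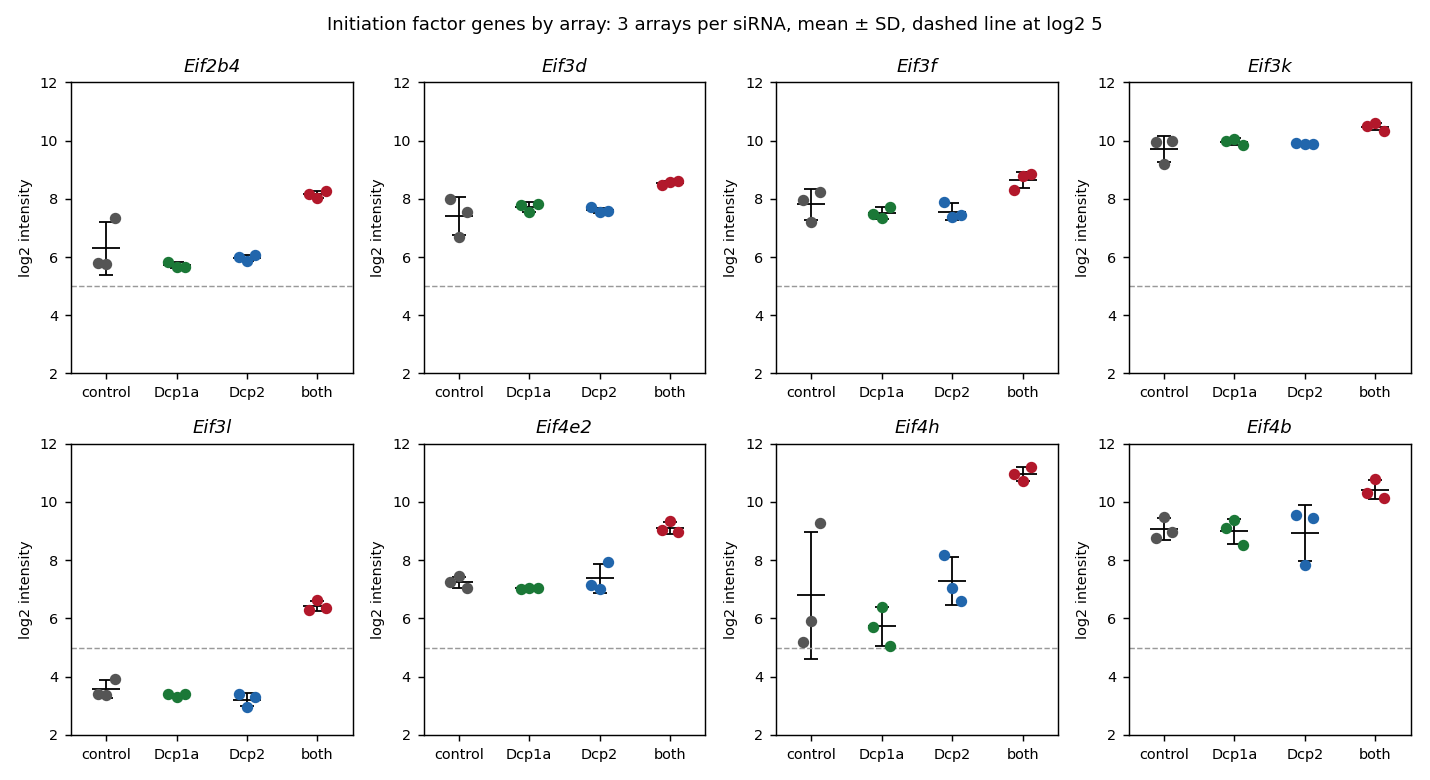
Log2 intensity of 8 initiation factor genes on each array, by siRNA, with the mean and SD of 3 arrays and a dashed line at log2 5, the level used as the floor. Eif3l lies below the line in all groups but the double knockdown, and the double knockdown arrays are the 3 highest of 12 in every panel. The panels hold the members called in any comparison and Eif4b, which was called in none. They were chosen with their values known, so this separation follows in part from the choice and supports nothing.

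Tested genes were those whose probe set exceeded log2 5, an intensity of 32, on at least 3 of the 12 arrays. The 7 members that did not were Eif1a, Eif2b5, Eif2s3y, Eif3b, Eif3m, Eif4a3 and Eif5a2, none of which read above 12.5 on any array. Eif2s3y is carried on the Y chromosome, which eggs lack. Eif3l passed only through its 3 double knockdown arrays, so it had to differ to be tested and its place in the counts of called members, here and against the single knockdowns, supports nothing. Eif1ad passed on 4 arrays. The median log2 change of the 35 tested members in the double knockdown against control was 0.30, against 0.00 for all tested genes, and 23 were above 0 and 12 below. At an unadjusted p under 0.05 there were 12 higher and 2 lower members, or 40% of those tested, against 28.1% of all genes. The medians were 0.30 and 0.00 also with values under 32 set to 32.

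Sequences around the annotated starts are shown for the members called in any comparison, because decapping acts on the first bases of the mRNA. They were taken from RefSeq promoters of GRCm38.p6, which matched 33 of the 42 members, and run from 60 bases before the first listed start to 20 bases after it. Capitals mark the letters CCGGAAG on either strand, the core bound by ETS factors. They also mark the longest tract of a C followed by at least 4 bases that are each C or T, where that C lies within 10 bases of the start. Such a tract at the very 5′ end is the feature of mRNAs known as TOP mRNAs, many of which encode parts of the translation machinery.
Eif2b4 (chr5:31193120-31193199, minus strand): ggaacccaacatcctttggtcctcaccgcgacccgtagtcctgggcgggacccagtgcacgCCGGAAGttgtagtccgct
Eif3l (chr15:79075163-79075242, plus strand): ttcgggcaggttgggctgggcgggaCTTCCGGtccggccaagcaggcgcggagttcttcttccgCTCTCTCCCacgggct
Eif3d (chr15:77970805-77970884, minus strand): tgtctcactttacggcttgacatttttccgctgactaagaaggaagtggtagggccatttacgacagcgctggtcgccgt
Eif3k (chr7:28981869-28981948, minus strand): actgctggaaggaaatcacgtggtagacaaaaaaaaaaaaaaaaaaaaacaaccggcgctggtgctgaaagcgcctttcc
Eif3f (chr7:108934355-108934434, plus strand): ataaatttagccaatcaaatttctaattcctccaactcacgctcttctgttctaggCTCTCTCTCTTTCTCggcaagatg
Eif4e2 (chr1:87213851-87213930, plus strand): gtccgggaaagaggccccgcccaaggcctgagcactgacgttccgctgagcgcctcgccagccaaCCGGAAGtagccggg
Eif4h (chr5:134639390-134639469, minus strand): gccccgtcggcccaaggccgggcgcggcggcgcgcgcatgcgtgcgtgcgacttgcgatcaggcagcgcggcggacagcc
The tract in Eif3f is 15 bases long and that in Eif3l is 9. Over the full promoters of 300 bases, 13 of 33 members (39.4%) held CCGGAAG at 1 start or more, against 9.93% of 27025 genes of all kinds. A tract at the start was present for 10 of 33 members (30.3%), against 33.3% of all genes. These matches are letters in a window and show no binding or start site use.

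Among the genes of eIF2 and eIF2B, Eif2b4 stood apart. It encodes the delta subunit of eIF2B, part of the body to which phosphorylated eIF2 binds. Eif2b4 intensity was 56.1, 53.7 and 161.5 in control eggs, 57.3, 50.3 and 50.8 after Dcp1a siRNA and 64.1, 58.3 and 66.6 after Dcp2 siRNA. After both siRNAs it was 284.6, 263.2 and 308. The 3 double knockdown arrays were above all 9 others, and control replicate 3 was the highest of the rest. Its log2 change against control was 1.86 ± 0.35 (SE, adjusted p = 0.00777, limma), and it kept the call with each array left out in turn. With the spread taken from the 6 arrays compared the adjusted p was 0.0931, and with no filter on dim probe sets it was 0.0644 (limma).

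The other eIF2B subunit genes did not pass the test against control. Eif2b3 (gamma subunit) had a log2 change of 0.49 ± 0.22, Eif2b1 (alpha) 0.63, and Eif2b2 (beta) 0.34 (limma). Eif2s2, the beta subunit of eIF2 and the member of this factor with the highest mean, read 23382, 38124 and 26371 in control eggs. It read 24947, 24734 and 19110 after Dcp1a siRNA, 30354, 31331 and 19374 after Dcp2 siRNA, and 26759, 20210 and 26035 after both. These groups overlapped throughout, and the log2 change in the double knockdown was -0.25 (adjusted p = 0.526, limma). Eif2s3x, the gamma subunit, changed by -0.21 and Eif2a, an alternative carrier of initiator tRNA, by -0.37. Eif2d, which binds ribosomes and acts in recycling and in unusual forms of initiation, read 420.1, 590.1 and 650.5 in control eggs and 938.9, 906.6 and 775.4 after both siRNAs, without overlap. That change was 0.68 ± 0.20 and did not pass (adjusted p = 0.0643, limma). A dimmer Eif2d probe set did pass, with 105.6, 82.4 and 117 in control eggs and 178.8, 229.9 and 199.7 in the double knockdown (1.00 ± 0.21, adjusted p = 0.0153, limma).

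Of the eIF3 genes 3 of 9 tested were called higher with both siRNAs, against 6.78% of all genes, and 1 of the 3, Eif3l, was tested only because it was high there. Eif3l and Eif3k encode neighbouring subunits at the edge of the complex, and Eif3d a subunit that can itself contact the cap. Eif3l intensity was 10.5, 10.4 and 15.2 in control eggs, 10.5, 9.8 and 10.5 after Dcp1a siRNA and 10.5, 7.7 and 9.8 after Dcp2 siRNA. It was 78.2, 99 and 82.9 after both. All 9 other arrays were under the floor of 32, so the fold of at least 2.7 was taken against that floor. With no filter, where every probe set was tested, the adjusted p was 0.000294 (limma). That test supports nothing either, because the probe set was the brightest of its gene only through the double knockdown. In control eggs its mean log2 intensity was 3.57, against 3.73 for another Eif3l probe set. The remaining Eif3l probe sets stayed under 32 on all arrays.

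Eif3d intensity was 255, 102.8 and 186.3 in control eggs, 219.6, 185.4 and 228.3 after Dcp1a siRNA and 209.6, 185.9 and 189.8 after Dcp2 siRNA. It was 355.6, 380.4 and 386.8 after both siRNAs, higher than on any other array. The log2 change against control was 1.14 ± 0.28 (adjusted p = 0.0265, limma). That call was lost without control replicate 2 (0.78, adjusted p = 0.0538) and without double knockdown replicate 1, 2 or 3 (adjusted p = 0.0753, 0.0921 and 0.0536, limma). It was also lost with no filter (adjusted p = 0.138) and with the spread from the 6 arrays compared (adjusted p = 0.148, limma). Eif3k read 991.4, 584.3 and 1011 in control eggs, 1017, 1066 and 912.8 after Dcp1a siRNA, 957.7, 945.1 and 945.9 after Dcp2 siRNA and 1445, 1557 and 1294 after both. Again the double knockdown arrays were the highest, while control replicate 2 was far below its group. Eif3k had the smallest called change, 0.77 ± 0.21 (adjusted p = 0.0478, limma). It kept the call with 3 of the 12 arrays left out, control replicate 1, control replicate 3 and Dcp2 siRNA replicate 2. Without any other single array the adjusted p was between 0.0542 and 0.166 (limma). It was called in 4 of 10 other alternatives, and the adjusted p ran from 0.0217 to 0.183 over them (limma).

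Eif3f, a subunit with a tract of C and T at its start, was called against both single knockdowns and not against control. Its intensity was 250.9, 147.5 and 303.9 in control eggs, 179.4, 160.7 and 212.3 after Dcp1a siRNA and 238.1, 164 and 172.7 after Dcp2 siRNA. After both it was 318.4, 437.1 and 461.6, above every other array. The log2 change was 0.84 ± 0.28 against control (adjusted p = 0.0891), 1.13 ± 0.28 against Dcp1a siRNA (adjusted p = 0.0241) and 1.08 ± 0.28 against Dcp2 siRNA (adjusted p = 0.0426, limma). Without control replicate 3 the change against control was 1.06 and passed (adjusted p = 0.0454, limma). It passed with no other single array left out, and without control replicate 2 it was 0.54 (adjusted p = 0.287, limma).

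The remaining tested eIF3 genes were not called against control by their brightest probe set. Eif3i, which had the highest mean of this factor, read 23530, 21981 and 20776 in control eggs and 20679, 22770 and 20830 after both siRNAs. It read 22058, 21357 and 20335 after Dcp1a siRNA and 24037, 20843 and 26188 after Dcp2 siRNA, so all groups overlapped. Log2 changes in the double knockdown were -0.04 for Eif3i, -0.06 for Eif3e, 0.23 for Eif3h, 0.30 for Eif3c and -0.25 for the scaffold subunit gene Eif3a. Eif3h was lower after Dcp2 siRNA alone at an unadjusted p of 0.0182 (-0.74 ± 0.27), without passing adjustment (adjusted p = 0.425, limma).

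**Figure D2:**
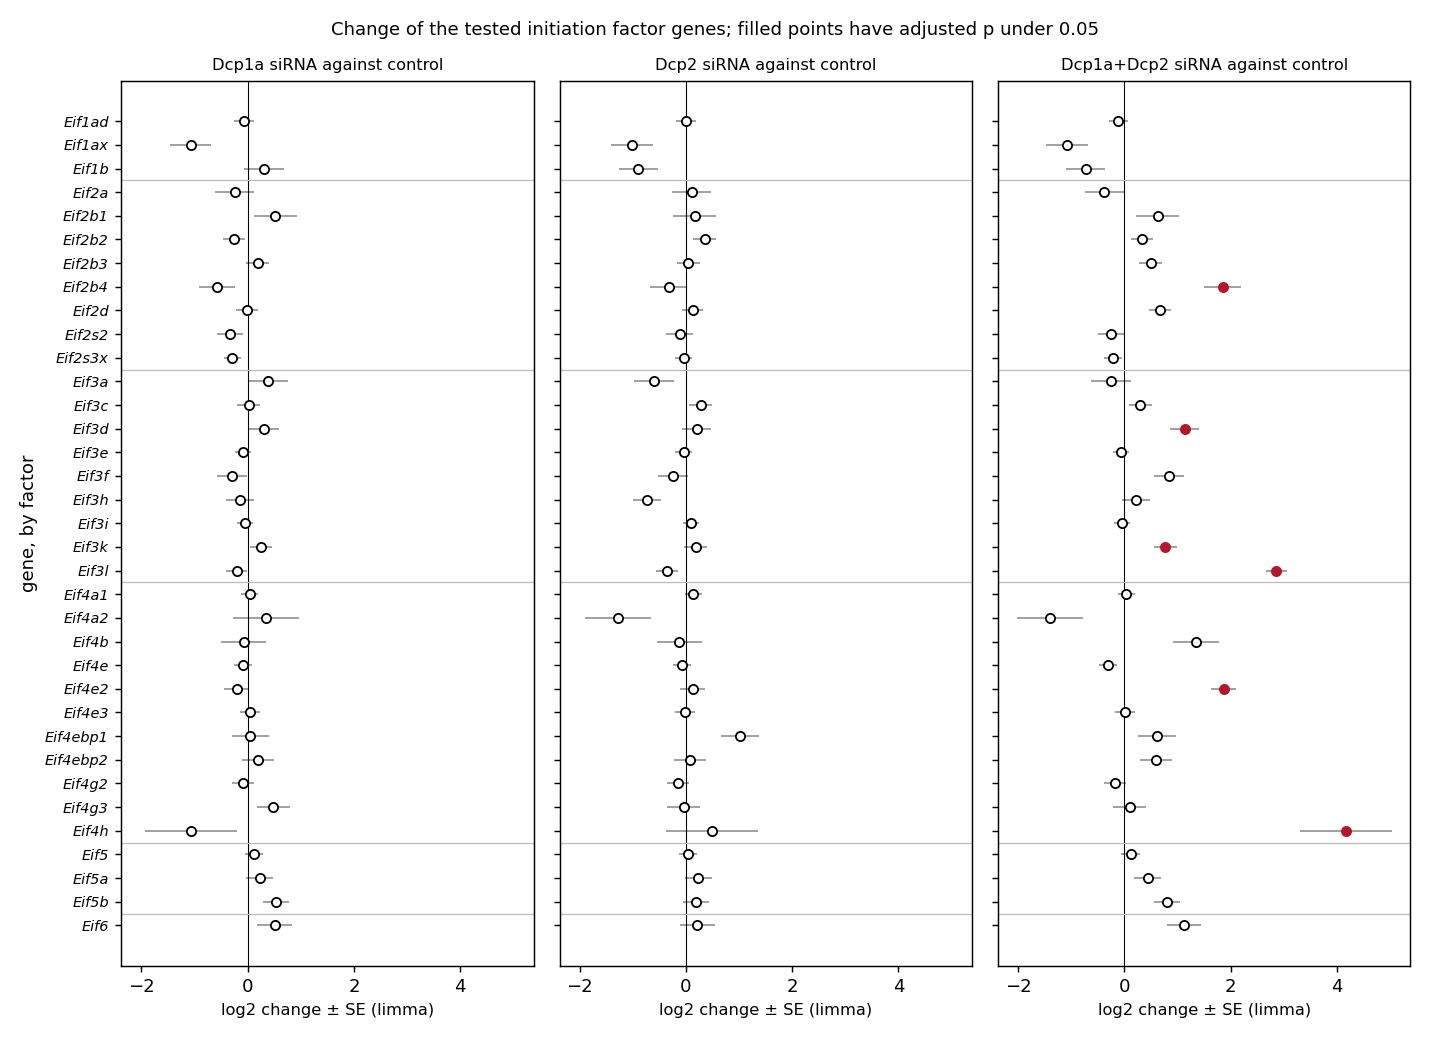
Log2 change ± SE (limma) of the 35 tested initiation factor genes against control eggs after Dcp1a siRNA, Dcp2 siRNA or both, ordered by factor. Filled points, 6 in the double knockdown and 0 in the others, have an adjusted p under 0.05, and Eif4h and Eif3l lie farthest to the right.

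The eIF4 group holds the factors that meet the cap, and 2 of its 11 tested members rose, against 6.78% of all genes. Eif4h is an RNA-binding partner of the eIF4A helicase. Eif4h intensity was 36.1, 60.4 and 623.3 in control eggs, 52.2, 84.8 and 33.3 after Dcp1a siRNA and 292.9, 132.5 and 97.7 after Dcp2 siRNA. It was 1994, 1678 and 2378 after both siRNAs, with no array of another group above 623.3. The control arrays had the widest spread among the called members, an SD of 2.2 on the log2 scale, with replicate 3 far above the other two. The log2 change was 4.17 ± 0.86 (adjusted p = 0.0135, limma). Without control replicate 2 the call was lost (adjusted p = 0.0676), without control replicate 3 the change was 5.42, and with the spread from the 6 arrays compared the adjusted p was 0.0973, and with no filter it was 0.12 (limma). A pair of dimmer Eif4h probe sets rose as well, at least 15.3-fold and at least 5.51-fold against the floor (adjusted p = 0.0152 and 0.00535, limma). The latter exceeded 32 on 5 arrays and passed the filter only through the double knockdown, so its rise supports nothing. Probe sets whose name holds an x or s, as for all 3 tested Eif4h probe sets, can include probes that match other transcripts too.

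Eif4e2 encodes a cap-binding protein that competes with eIF4E and represses translation. Its intensity was 151.2, 173.8 and 133.2 in control eggs, 129, 132.8 and 132.1 after Dcp1a siRNA and 142.7, 129 and 246.9 after Dcp2 siRNA. With both siRNAs it was 526.7, 655 and 496.5. Groups were tight apart from Dcp2 siRNA replicate 3, and no other array reached the level of the double knockdown. The log2 change of 1.87 ± 0.24 (adjusted p = 0.000983, limma) passed with each array left out and under every alternative. The remaining 4 Eif4e2 probe sets were under the floor on all arrays.

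Eif4e, the main cap-binding protein, was not called. It read 5155, 7246 and 6408 in control eggs and 4612, 5211 and 5293 in the double knockdown, a log2 change of -0.30 (adjusted p = 0.254, limma). Eif4e3, a further cap-binding relative, changed by 0.01 and the helicase gene Eif4a1 by 0.04. Eif4g2, an eIF4G relative without the cap-binding partner site, had the highest mean of this factor. It read 21071, 24082 and 24718 in control eggs, 21571, 22218 and 21719 after Dcp1a siRNA, 25564, 24041 and 14850 after Dcp2 siRNA and 20200, 18886 and 22541 after both. Its change in the double knockdown was -0.18 (adjusted p = 0.574, limma), and that of Eif4g3, a scaffold, was 0.10. For the eIF4E-binding repressor genes the changes were 0.61 for Eif4ebp1 and 0.60 for Eif4ebp2, neither past the threshold.

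Eif4b and Eif4a2 showed larger changes that did not pass. Eif4b, which also stimulates eIF4A, read 430.7, 708.4 and 504.5 in control eggs and 1270, 1757 and 1137 after both siRNAs. Its arrays did not overlap, and the change was 1.35 ± 0.43 (adjusted p = 0.0781, limma). Without Dcp2 siRNA replicate 2, which read 226.3 beside 749 and 701.2, the adjusted p was 0.0138 (limma). Eif4b passed with no other single array left out, and without double knockdown replicate 2 the adjusted p was 0.252 (limma). Eif4a2, the relative of Eif4a1, read 550.1, 941.2 and 1688 in control eggs and 917, 1235 and 1560 after Dcp1a siRNA. It read 356.2, 852.2 and 204.8 after Dcp2 siRNA and 281.1, 201.6 and 834.9 after both. Of the arrays with Dcp2 siRNA 4 of 6 were below every array without it, and the change in the double knockdown was -1.40 ± 0.62 (adjusted p = 0.172, limma).

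Genes for the last steps of initiation and for start codon choice had no call against control by their brightest probe set. Eif6, which holds the large subunit apart until it is needed, read 618.8, 248 and 287.2 in control eggs, 525.6, 388.1 and 619.8 after Dcp1a siRNA and 387.1, 342.3 and 521.3 after Dcp2 siRNA. It read 734.1, 768.7 and 817 after both, above all other arrays, with a change of 1.13 ± 0.32 (adjusted p = 0.0552, limma). Without control replicate 1 the change was 1.53 and passed (adjusted p = 0.00323, limma), and quantile normalization also passed it (adjusted p = 0.0431, limma). It passed with no other single array left out, and without control replicate 2 the change was 0.87 (adjusted p = 0.208, limma). Eif5b, the GTPase of subunit joining, changed by 0.80 ± 0.25 (adjusted p = 0.0694), and 0.94 without control replicate 1 (adjusted p = 0.0312, limma). Eif5b passed with 2 of the 12 arrays left out in turn, and without control replicate 2 the adjusted p was 0.2365 (limma). Eif5a, named for initiation but known to act in elongation, read 24356, 10490 and 15698 in control eggs and 22595, 20898 and 21302 in the double knockdown. It read 18881, 18140 and 18761 after Dcp1a siRNA and 20299, 16365 and 19497 after Dcp2 siRNA, and changed by 0.44 in the double knockdown (adjusted p = 0.269, limma). Eif5, the GTPase activator of eIF2, changed by 0.12.

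Eif1ax encodes eIF1A, which helps the ribosome scan. Its intensity was 2172, 3646 and 7303 in control eggs, 2029, 1995 and 1529 after Dcp1a siRNA, 1634, 2900 and 1486 after Dcp2 siRNA and 2026, 1888 and 1617 after both. All arrays of the Dcp1a and double knockdowns were below all control arrays. The log2 change was -1.07 with Dcp1a siRNA and -1.08 with both, each ± 0.39, with adjusted p = 0.853 and 0.114 (limma). Without control replicate 1 the change in the double knockdown was -1.49 and passed (adjusted p = 0.0157, limma). It passed with no other single array left out, and without control replicate 3 it was -0.62 (adjusted p = 0.301, limma). Eif1b, a relative of eIF1, read 3494, 3726 and 4989 in control eggs, 4941, 4984 and 5012 after Dcp1a siRNA, 2117, 3633 and 1309 after Dcp2 siRNA and 2403, 1620 and 3705 after both. Its changes of -0.90 after Dcp2 siRNA and -0.72 after both did not pass (adjusted p = 0.425 and 0.219, limma). Eif1ad stayed between 26 and 37.1 on every array.

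**Figure D3:**
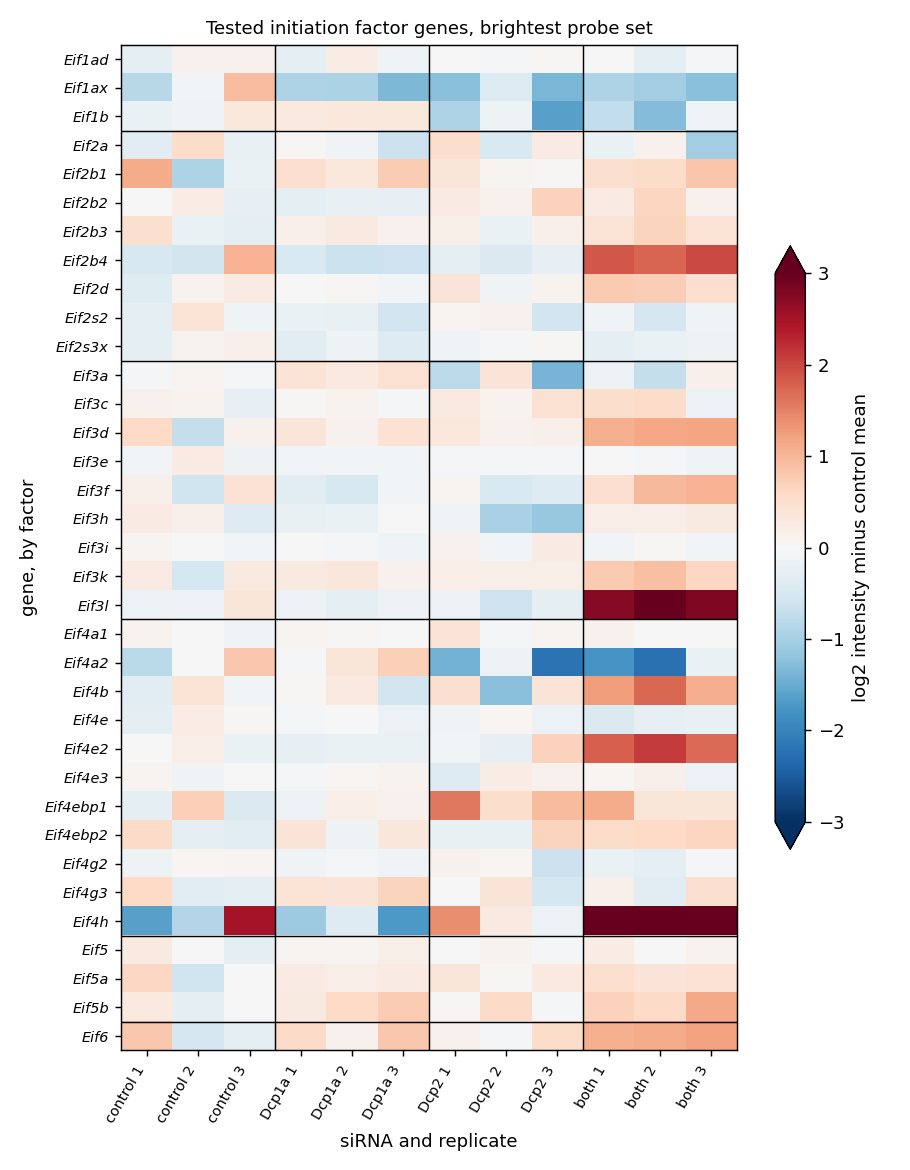
Log2 intensity minus the control mean for the 35 tested initiation factor genes (rows, by factor) on each of the 12 arrays (columns, by siRNA and replicate), with the colour scale ending at 3 on either side. Eif2b4, Eif3l, Eif4e2 and Eif4h are dark red on all 3 double knockdown arrays, and control replicate 3 is red for Eif4h and Eif2b4.

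Against each single knockdown the same direction was seen. The double knockdown exceeded the Dcp1a knockdown in Eif2b4, Eif3f, Eif3l, Eif4e2 and Eif4h, 5 of 35 members against 8.18% of all genes called higher, with 0 lower against 3.3% (11.5% in all). The same 5 genes exceeded the Dcp2 knockdown, where 5.87% of all genes were called higher and 0.272% lower, 6.15% in all (limma). These comparisons share the double knockdown arrays. Eif4h changed by 5.24 ± 0.86 and 3.68 ± 0.86 on the log2 scale, Eif2b4 by 2.43 and 2.18 and Eif4e2 by 2.08 and 1.75. In the Dcp1a knockdown 0 of 35 members were called against control and in the Dcp2 knockdown 0 of 35, where 0.0572% and 0.0286% of all genes passed. At an unadjusted p under 0.05 they numbered 2 (5.71%, against 4.9% of all genes) and 4 (11.4%, against 10.5%), and limma with a trend also called 0 in each.

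Whether both siRNAs together did more than the sum of each was asked with the interaction term, in log2 units. Eif2b4, Eif3l and Eif4e2 departed upward, 3 of 35 members against 3.7% of all genes, and 0 departed downward against 0.0572%, 3.76% in all (limma). The departure was 2.76 ± 0.49 for Eif2b4 and 1.96 ± 0.34 for Eif4e2 (adjusted p = 0.0105 and 0.00976, limma). Eif3l lay under the floor in 3 of 4 groups and passed the filter only through the double knockdown, so its departure is a description with no size of its own. Eif4h, with a departure of 4.75 ± 1.22, did not pass (adjusted p = 0.0589, limma). The members most like Eif4h over the 12 arrays were Eif2b4 (Pearson r = 0.952), Eif2d (0.903) and Eif3l (0.877). These correlations describe 4 groups of which the double knockdown is high in each.

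Left out together, control replicate 1 and Dcp2 siRNA replicate 2, an alternative chosen after seeing the data, changed the counts. In the double knockdown against control 15 members were then called, the earlier 6 among them, with 13 higher against 19% of all genes and 2 lower against 9.43%, 28.4% in all. Added were Eif2b1, Eif2b3, Eif4b, Eif4ebp2, Eif5a, Eif5b and Eif6, all higher, and Eif1ax and Eif4a2, lower. In the Dcp2 knockdown Eif1ax, Eif1b, Eif3a and Eif4a2 were called lower, 4 members against 11.6% of all genes, and 0 higher against 9.96%, 21.6% in all. In the Dcp1a knockdown Eif1ax was called lower (-1.49, adjusted p = 0.0277) and Eif2b1 higher (1.08, adjusted p = 0.043, limma), against 0.743% and 4.72%, 5.46% in all. Against the Dcp1a knockdown 10 were called, 8 higher against 11.3% and 2 lower against 11.2%, 22.5% in all. Against the Dcp2 knockdown Eif3f was lost (adjusted p = 0.116, limma), which left 4 higher against 5.7% and 0 lower against 0.357%, 6.06% in all. The interaction gained Eif4h and Eif1ax, 5 members upward against 4.59% and 0 downward against 0.901%, 5.49% in all.

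Probe sets of the same gene did not always move together. Of 18 genes with more than 1 tested probe set, 8 had log2 changes of opposite sign in the double knockdown against control. Over all 68 tested probe sets of the members 11 were called higher and 1 lower, against 6.62% and 2.1% of all 11593 probe sets, 8.72% in all (limma). Against the Dcp1a knockdown 10 were higher and 2 lower, where 8.27% and 3.79% of all probe sets passed, 12.1% in all. Against the Dcp2 knockdown 9 were higher and 0 lower, where 6.12% and 0.25% passed, 6.37% in all. In the interaction 7 departed upward and 0 downward, where 3.9% and 0.0345% did, 3.93% in all (limma). The tested Eif3l probe set and the dimmest tested Eif4h probe set passed the filter only through the double knockdown. Their places in these counts support nothing. Eif3c, a core eIF3 subunit, had a bright probe set at 8249, 8125 and 6387 in control eggs and 10835, 10999 and 6674 after both siRNAs (0.30). A dimmer one read 34.7, 27.4 and 125.1 in control eggs, and 269.5, 365.4 and 443.6 after both. That change was 2.84 ± 0.48 (adjusted p = 0.0049, limma), and another dim probe set changed by 2.78 ± 0.49 (adjusted p = 0.00611, limma). Both are of the x type, and for both control replicate 3 was the highest array outside the double knockdown.

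For Eif5 a dimmer probe set was lower. Its brightest probe set was 20673, 17240 and 14021 in control eggs and 20112, 17279 and 18363 after both siRNAs. Another read 281.2, 810.2 and 500.7 in control eggs, 470.8, 458.9 and 395.9 after Dcp1a siRNA, 137, 325.5 and 85.3 after Dcp2 siRNA and 165.8, 88 and 158.8 after both. It was called lower in the double knockdown against control (-1.87 ± 0.49, adjusted p = 0.0375) and against the Dcp1a knockdown (-1.74 ± 0.49, adjusted p = 0.0416, limma). Eif5b had 0.80 by its brightest probe set and -0.94 by the next, which was called lower against the Dcp1a knockdown (-1.38 ± 0.33, adjusted p = 0.0208, limma). A dimmer Eif4g2 probe set read 1907, 1694 and 2625 in control eggs, 701.9, 2326 and 377.3 after Dcp2 siRNA and 702.7, 362.1 and 2255 after both, a change of -1.30 that did not pass. For Eif4b the dimmer probe sets changed by -0.22 and 0.07, against 1.35 for the brightest.

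**Figure D4:**
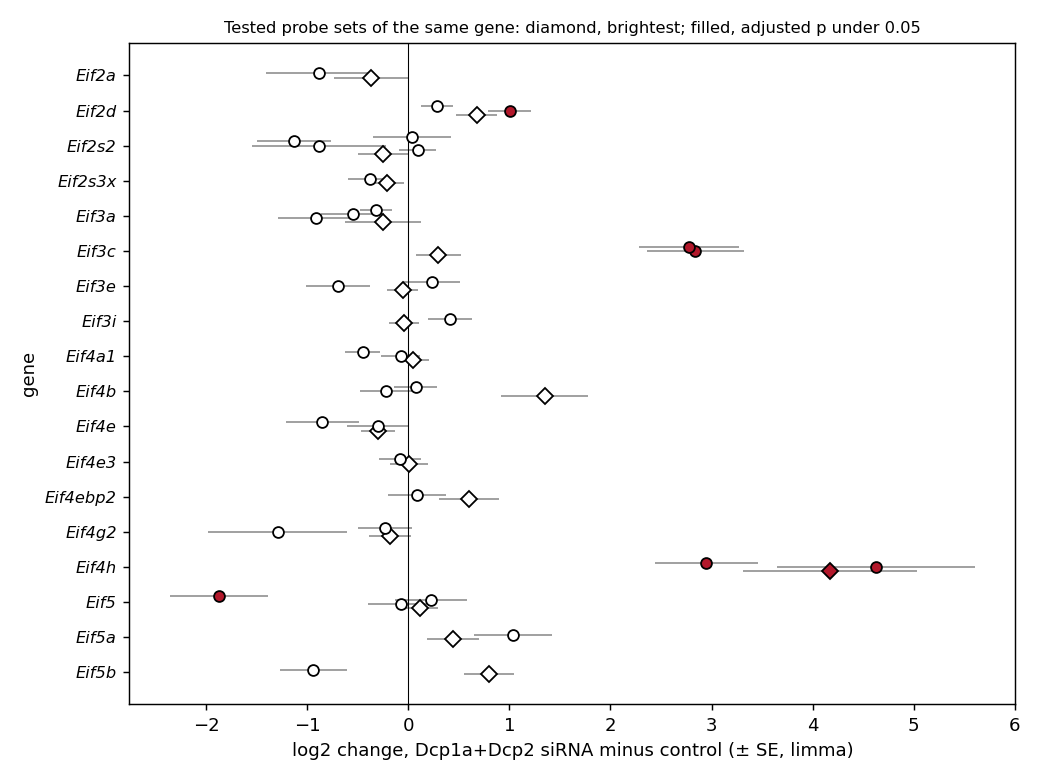
Log2 change ± SE (limma), double knockdown minus control, of every tested probe set of the 18 genes with more than 1, with diamonds for the brightest probe set of a gene and filled marks for an adjusted p under 0.05. All 3 Eif4h marks are filled and positive, while Eif3c and Eif5 have filled marks only away from the brightest probe set. The dimmest of these Eif4h probe sets passed the filter only through the double knockdown, so its mark supports nothing.

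Regulators of initiation gave no call in the double knockdown against control. Of 30 tested genes, 0 passed in either direction against 8.42% of all genes (limma). With an unadjusted p under 0.05 there were 4 higher and 4 lower, near the share of all genes, 28.1% in either direction. Their median log2 change was -0.14, against 0.00 for all genes. Nearest were the kinase gene Mtor (0.66 ± 0.20, adjusted p = 0.0679) and Cpeb3, which encodes a binding protein of cytoplasmic polyadenylation elements (-0.74 ± 0.23, adjusted p = 0.0724, limma). Cpeb3 was called lower against the Dcp1a knockdown (-1.10 ± 0.23, adjusted p = 0.0106, limma), 1 of 30 where 3.3% of all genes were. Among 15 elongation and termination factors 0 passed against control, where 8.42% of all genes did (limma), and their median was -0.03. At an unadjusted p under 0.05 there were 3 higher and 2 lower of the 15, beside 28.1% of all genes in either direction. The translocase gene Eef2 changed by 1.45 ± 0.41 and Eef1a1, the carrier of aminoacyl-tRNA, by 1.63 ± 0.47 (adjusted p = 0.0512 and 0.0559, limma). Against the Dcp1a knockdown 2 of the 15 were called higher and 1 lower, where 8.18% and 3.3% of all genes passed (limma). These were Eef1a1 (1.77 ± 0.47, adjusted p = 0.0329), Eef1d, which encodes a subunit of its exchange factor (2.13 ± 0.59, adjusted p = 0.0386), and the mitochondrial elongation factor gene Gfm1 (-0.95 ± 0.25, adjusted p = 0.0343, limma). Eef1a1 was also called higher against the Dcp2 knockdown (2.73 ± 0.47, adjusted p = 0.00469, limma), 1 of 15 where 5.87% of all genes were, and its departure from additivity was 2.87 ± 0.66 (adjusted p = 0.0354, limma).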

How the data were processed

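The authors deposited linear intensity values for each of 12 arrays, computed with GCRMA, per the submitters' processing notes. GCRMA adjusts background from the base content of probes and then normalizes between arrays, and its version is not stated in the labels. Dim values gather at a common bottom, with 55.6% of them no higher than 5 units. Intensities were transformed to log2. The array holds 45101 probe sets. Its 64 control probe sets were dropped, and the 11593 above log2 5 on at least 3 arrays were tested. Groups were compared over all 12 arrays with limma 3.58.1 in R 4.3.3 (lmFit, eBayes without trend, 8 residual and 2.97 prior degrees of freedom). P-values are two-sided, adjusted by Benjamini-Hochberg across every tested probe set with a threshold of 0.05, and the fit was tested on simulated data. Errors are standard errors of the fit. Where the dimmer group had a mean or median at or under log2 5, the fold is a bound against that floor. Symbols came from the platform annotation, and all 42 matched RefSeq by Entrez number; 6 probe sets with several symbols were not used. P-values measure the spread among pools of eggs, and the number of arrays limits precision.

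Members called in any of 6 comparisons and the brightest member of each factor are given by array, and others with an unadjusted p under 0.05 in the double knockdown, or called by a dimmer probe set, by their change. Further members are given as values beside their factor, chosen after their values were seen. Pathway genes named are those called, or the pair with the smallest p in each list. The members, lists and rules were chosen with earlier results of these data known. Alternatives in filter, scaling, fit, block and arrays are given with the closing limits.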

Additional observations from a re-analysis of the deposited data

Results flagged for a closer look

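For 7 probe sets the effect of Dcp1a siRNA differed with and without Dcp2 siRNA, by the interaction term of limma. For Eif2b4 the difference was 2.76 on the log2 scale (adjusted p = 0.0105, limma), from -0.58 without Dcp2 siRNA to 2.18 with it. The -0.58 rests on control replicate 3, which read 161.5 beside 56.1 and 53.7 and also enters the 2.76. For Eif4e2 the difference was 1.96 (adjusted p = 0.00976, limma), from -0.21 to 1.75. For Eif3l the fitted difference was 3.43, a description only, since the probe set was under the floor in every other group and passed the filter through the double knockdown alone. For a dim Eif4h probe set the fitted difference was 3.27 (adjusted p = 0.0288, limma), also a description only. Its mean was under the floor in every other group, and it too passed the filter only through the double knockdown. A pair of dim Eif3c probe sets had 3.26 and 3.79 (adjusted p = 0.0227 and 0.0122, limma), while the brightest probe set of that gene had a difference of 0.00. The least bright of 3 tested Eif3e probe sets had 1.69 (adjusted p = 0.0381, limma), where the change with Dcp1a siRNA was -1.05 alone and 0.64 on top of Dcp2 siRNA.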

How the results depend on the processing

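Recomputed counts of called members stayed within 1.5 times the reported one in 112 cases and moved further in 25. The 112 include cases of the single knockdowns against control where both counts were 0, which say little about stability. For the double knockdown against control (6 as reported) the count was 2 with no filter on dim probe sets and 2 with the spread from the compared arrays, and 3 to 12 with 1 array left out, lowest without control replicate 2 and highest without control replicate 1. Against the Dcp1a knockdown (5) it was 8 with quantile normalization, 11 with the compared arrays only, 9 counting any probe set, and 4 to 8 with 1 array left out (8 without Dcp2 siRNA replicate 2 or double knockdown replicate 3). Against the Dcp2 knockdown (5) it was 3 with no filter, 3 with a filter at log2 7, 3 with the replicate block, and 3 to 7 with 1 array left out (3 without Dcp2 siRNA replicate 2 or 3 or any double knockdown array). For the interaction (3) it was 1 with no filter, 6 counting any probe set, and 3 to 4 with 1 array left out. The 6 include Eif4h only by its dim probe set that passed the filter through the double knockdown alone. For the Dcp1a knockdown (0) it was 0 to 1, with 1 without control replicate 1, and for the Dcp2 knockdown (0) 0 to 0. Without control replicate 1 and Dcp2 siRNA replicate 2 together the counts were 15, 2, 4, 10 and 5 for the double, Dcp1a and Dcp2 knockdowns against control, the double against the Dcp1a knockdown, and the interaction. The replicate number as a block gave 5 calls for the double knockdown against control, where Eif3k was lost (adjusted p = 0.0863, limma), and apart from the count against the Dcp2 knockdown left the others at 0, 0, 5 and 3. The numbers share no stated day or animal, and deviations from group means correlated over 0.1 in 9 of 18 same-number pairs and in 14 of 36 others, so they were not taken to pair arrays. The log2 change of Eif3i ran from -0.0885 to 0.0024 with 1 array left out, reversing to 0.0024 without control replicate 1, alone or with Dcp2 siRNA replicate 2. Of the other recomputed log2 changes of single members, 370 kept direction and side of the threshold, 26 lost the call and 19 gained one. Causes of these shifts were not tested. With no filter the number of tests was larger, and the part of this in the lost calls was not tested. Changes of probe sets near the floor of 32 units have no reliable size.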
